A study of Dichotomyctere nigroviridis with 22 samples.

Results

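Genes of the Wnt signalling pathway were followed in the hypothalamus and ovary of the green-spotted puffer (Dichotomyctere nigroviridis), a small pufferfish with a compact genome. Members were the rows whose gene symbol begins with, or equals, that of a Wnt ligand, a factor that exports or removes ligands, an R-spondin arm component, a receptor, a secreted antagonist, a part of the beta-catenin destruction complex, a beta-catenin or a TCF/LEF factor. This rule found 75 genes among 20108 in the deposited tables, of which 75 were listed for hypothalamus and 72 for ovary. The rule reads symbols only, so ctnnbl1, a spliceosome-associated protein, and 2 rows named ctnnbip1 were taken in by name. Where a symbol stands on more than 1 row, the gene ID is given.

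RNA was sequenced from vitellogenic females 24 h after injection. Treated fish received the peptide hormone phoenixin-14 (PNX-14; 100 ng for each g of body weight), and control fish received its vehicle. The groups are control hypothalamus (HC, n = 6), PNX-14 hypothalamus (HT, n = 6), control ovary (OC, n = 5) and PNX-14 ovary (OT, n = 5), with 1 fish per library. The methods describe one set of fish for both organs, so libraries of the 2 organs are not independent fish, and whether equal library numbers mark the same fish is not stated. The sources differ on the vehicle (sterile water or saline) and on whether ovaries were taken whole or as biopsies. No transgene or mutant allele was involved, and age was not given in the sources used here.

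Wnt ligands are lipid-modified secreted proteins that bind Frizzled receptors together with an LRP co-receptor. Without ligand, a complex of axin, APC and GSK3 marks beta-catenin for breakdown. With ligand, dishevelled recruits axin to the membrane, beta-catenin accumulates, and it acts in the nucleus through TCF/LEF factors. In vertebrates the pathway patterns the early brain, including the hypothalamus, and acts in ovarian follicle growth, while the Dickkopf (DKK) and secreted Frizzled-related (SFRP) proteins bind co-receptors or ligands outside the cell.

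Counted reads ranged from 9140910 to 12729314 per hypothalamus library and from 11756975 to 15735216 per ovary library. Neuron markers (9 of 14 listed genes matched) summed to 2192 to 3323 CPM (counts scaled to a common library size) in the 12 hypothalami and 21.5 to 30.7 CPM in the 10 ovaries. Oocyte markers (12 of 20 matched) summed to 19150 to 34920 CPM in ovaries. They were also present in hypothalami, at 7.65 to 14.8% of the median control ovary in 5 libraries (HC1, HC2, HC5, HT3 and HT4) and at 0.408 to 3.14% in the other 7. Pituitary hormone genes (6 of 11 matched) summed to at most 4.55 CPM in any hypothalamus. Skeletal and smooth muscle markers reached 8318 CPM in HC5 and 3575 CPM in HT4, against 252.6 to 911.1 CPM in the other hypothalami. These libraries were kept, and the fits were repeated without the 5 libraries with more egg RNA, which include both of those with the most muscle RNA. Of 32 named organ folds called, 31 were still called and all 32 had the same direction. These were mainly chosen as the largest called folds of the full fit, so most could be foreseen to stay called. Over all members, 55 were called with these libraries and 52 without them.

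Most members differed between the organs in control fish, as did most of all genes tested. Levels are given as FPKM, the deposited value scaled for gene length and mapped reads, and folds come from edgeR's quasi-likelihood fit of the counts of all 22 libraries, with p adjusted over the 17840 genes tested. Of the 70 members tested, 38 were higher in control hypothalamus (54.3%, against 44.3% of all genes tested) and 17 were lower (24.3%, against 39.2%). With a fold of at least 4 as well, 24 were higher (34.3%, against 26.7% of all genes) and 5 were lower (7.14%, against 14.4%). The median log2 fold was 0.75 over the members and 0.18 over all genes tested. The 4 members without a count in any control ovary lie above that median at their lower bounds too. Scaling by DESeq2 size factors moved the median of all genes by 0.15, and the number at least 4-fold lower was then 2. It was 3 with the library number as a block. The share of all genes under these settings was not computed. FPKM and the fit scale libraries differently between the organs: over the 66 members with counts in both, the fitted log2 fold lay a median of -0.36 from that of mean FPKM. For 12 of them, among which only PORCN (ENSTNIG00000004840) was called, the signs were opposite.

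A mean of at least 1 FPKM was reached by 70 of the 75 members in control hypothalamus and by 47 in control ovary. All 47 were among the 70. In the 3 control hypothalami with little egg RNA (HC3, HC4 and HC6), 69 members reached this level, and the same 47 overlapped with the ovary. The hypothalamus therefore held 23 members above this level that the ovary did not, and 12 of these were ligands. The share of all genes at this level was not computed. Of genes of any kind, 18958 to 19235 had counts in each control hypothalamus and 17015 to 17810 in each control ovary. The larger number of members found in hypothalamus is therefore not shown to be particular to Wnt genes. The 5 members below it in both organs were wnt10a, wnt2bb, NOTUM, notum2 and wnt10b (ENSTNIG00000002268).

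**Figure D1:**
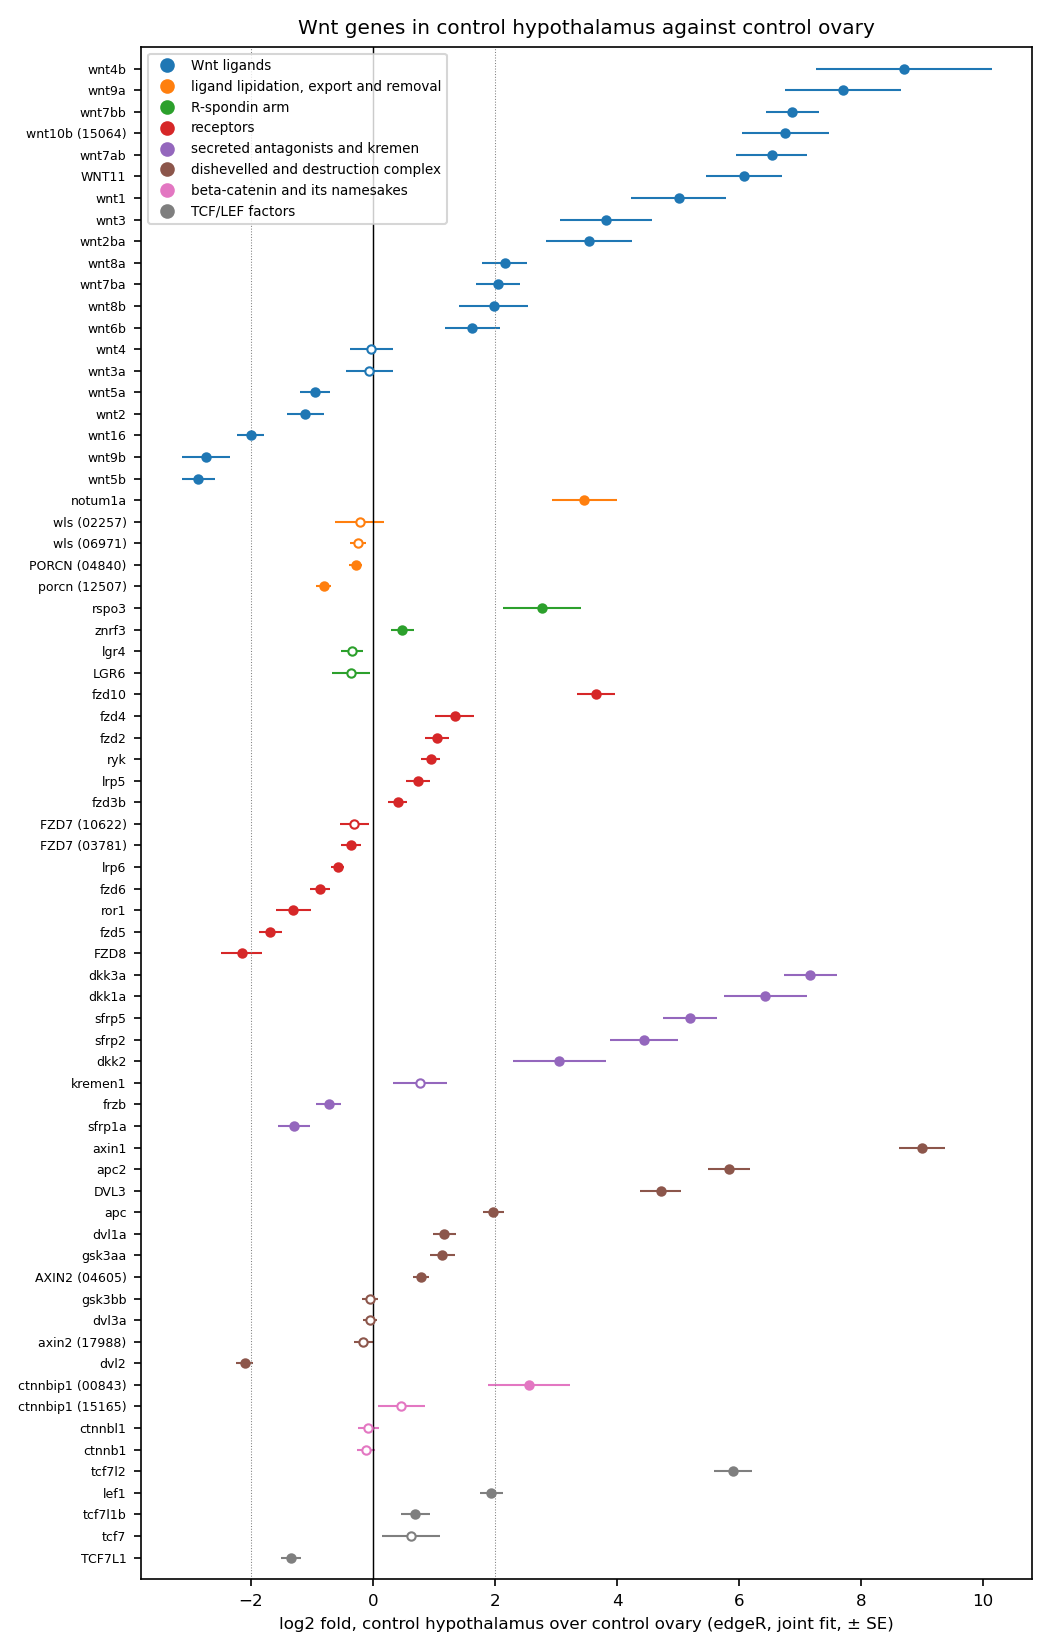
Log2 fold of control hypothalamus over control ovary for the 70 members tested, ordered within 8 roles, with SE as bars. Filled points passed an adjusted p of 0.05, open points did not, dotted lines mark a 4-fold difference, and digits in brackets end the gene ID. Points for wnt4b, wnt9a, wnt10b and dkk1a are fitted values for genes at 0 in every control ovary and are not bounds. Among genes with counts in control ovary, ligands reach from wnt5b at -2.87 to wnt7bb at 6.87.

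Among the 23 ligands, both organs held a similar summed FPKM but from different genes. The ligands summed to 112.4 ± 5.01 FPKM (SD, n = 6) in control hypothalamus and 104.3 ± 9.90 FPKM (SD, n = 5) in control ovary. These sums were not scaled as in the fit, whose log2 folds lay a median of -0.36 from those of FPKM. The similarity therefore holds on the FPKM scale only. In the hypothalamus the sum was spread out: the leading ligand, wnt7bb, took 18.8% ± 2.00 (SD, n = 6), followed by wnt16 at 11.3%, wnt7ab at 9.75% and wnt8a at 8.92%. In the ovary wnt16 took 36.9% ± 7.84 (SD, n = 5) and wnt5b 24.5% ± 4.96. In the 3 control hypothalami with little egg RNA, wnt7bb took 20.3%, wnt7ab 10.2% and wnt16 8.42%, so the order of wnt16 and wnt7ab was reversed. These shares describe the libraries, and no test was run on them. In bulk tissue, a difference in the number of cells of a type and a difference in RNA per cell cannot be told apart.

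The wnt7bb gene encodes a WNT7 ligand, a class known in mice for brain vascular growth and neural patterning. It lies on chromosome 13 at 9153860 to 9172584 (TETRAODON 8.0, the build named in the study's methods). Its lowest, median and highest levels were 17.7, 21.2 and 24.3 FPKM in control hypothalamus. In the 5 control ovaries it was at 0, 0.388, 0.0749, 0 and 0.182 FPKM. The ranges were far apart, and the log2 fold was 6.87 (SE 0.44, edgeR adjusted p = 1.6e-12), or 7.68 without OC2.

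Several other ligands were close to absent from the ovary. Control ovaries held no count of wnt4b, wnt9a or wnt10b (ENSTNIG00000015064), a floor of 3 counts over the group. Against that floor, with counts scaled by library size alone, wnt4b was at least 108-fold higher in control hypothalamus, wnt9a at least 53.9-fold and wnt10b at least 28.1-fold. These values lack the further library scaling of the fitted folds and are not bounds on that scale. All 3 genes were low in the hypothalamus too, at 4.58 ± 1.37, 2.43 ± 0.769 and 1.24 ± 0.453 FPKM (SD, n = 6). The paralog wnt4 differed from wnt4b: it stood at 4.46 ± 1.48 FPKM in hypothalamus and 3.57 ± 1.96 FPKM in ovary, with a log2 fold of -0.03 (SE 0.35). WNT4 is known in mammals for its part in ovary formation.

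The wnt1 gene, which in mice marks and maintains the midbrain-hindbrain boundary, had 4 to 26 counts in control hypothalami and 2 counts in all control ovaries. It lies beside wnt10b (ENSTNIG00000015064) on chromosome 9, 3120 bases apart, a pair that is also linked in mammals. WNT11 behaved alike, with 36 to 64 counts in control hypothalami and 0 to 2 in control ovaries. The wnt3a and wnt9a genes are also neighbours (17034 bases apart), yet wnt3a had a log2 fold of -0.06 (SE 0.39) between the organs while wnt9a was without a count in control ovary.

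The ligands furthest to the ovary side were wnt5b, wnt9b and wnt16. The 5 control ovaries held wnt16 at 49.0, 45.0, 45.1, 22.1 and 34.0 FPKM. Control hypothalami ran from 8.15 to 18.6 FPKM with a median of 11.8, so no hypothalamus reached the lowest ovary. The log2 fold was -2.005 (SE 0.23, edgeR adjusted p = 2.5e-08). WNT16 is best known in mammals for its role in cortical bone, and in zebrafish for blood stem cell specification.

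The 5 control ovaries held wnt5b at 30.7, 23.9, 19.4, 28.4 and 24.4 FPKM. Control hypothalami held between 1.96 and 7.55 FPKM, median 4.02. WNT5 ligands act largely through ROR and RYK receptors without beta-catenin. The ranges were apart and the log2 fold was -2.87 (SE 0.27, edgeR adjusted p = 1.2e-09). Ovary levels of wnt9b, whose mouse ortholog acts in kidney and reproductive tract formation, were 5.05, 7.48, 9.63, 3.63 and 9.85 FPKM against a highest control hypothalamus of 3.03 FPKM, with a log2 fold of -2.74 (SE 0.40).

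Among control hypothalami, wnt16 and wnt5b were higher where egg RNA was higher. The level of wnt5b was 4.93, 6.11 and 7.55 FPKM in the 3 with more oocyte marker RNA, and at 3.10, 1.96 and 2.98 FPKM in the other 3. The same split for wnt16 was 14.9, 13.2 and 18.6 FPKM against 10.5, 10.4 and 8.15 FPKM. In PNX-14 hypothalami the split for wnt16 was not complete. HT3 held 13.2 FPKM (7.65% egg RNA) and HT4 14.1 FPKM (14.2%). HT2, HT5 and HT6, with less egg RNA, lay below both, the lowest being HT5 at 10.1 FPKM. HT1, with 3.14% egg RNA, was the exception and lay above both at 17.6 FPKM. The wnt5b of PNX-14 hypothalami was 5.35 and 6.85 FPKM in HT3 and HT4 and 3.01 to 4.91 FPKM in the other 4. Without the 5 hypothalami with more egg RNA, the organ log2 fold was -3.63 for wnt5b and -2.43 for wnt16. Over all members, 52 were called without these libraries, and all 52 were among the 55 called with them, in the same direction.

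**Figure D2:**
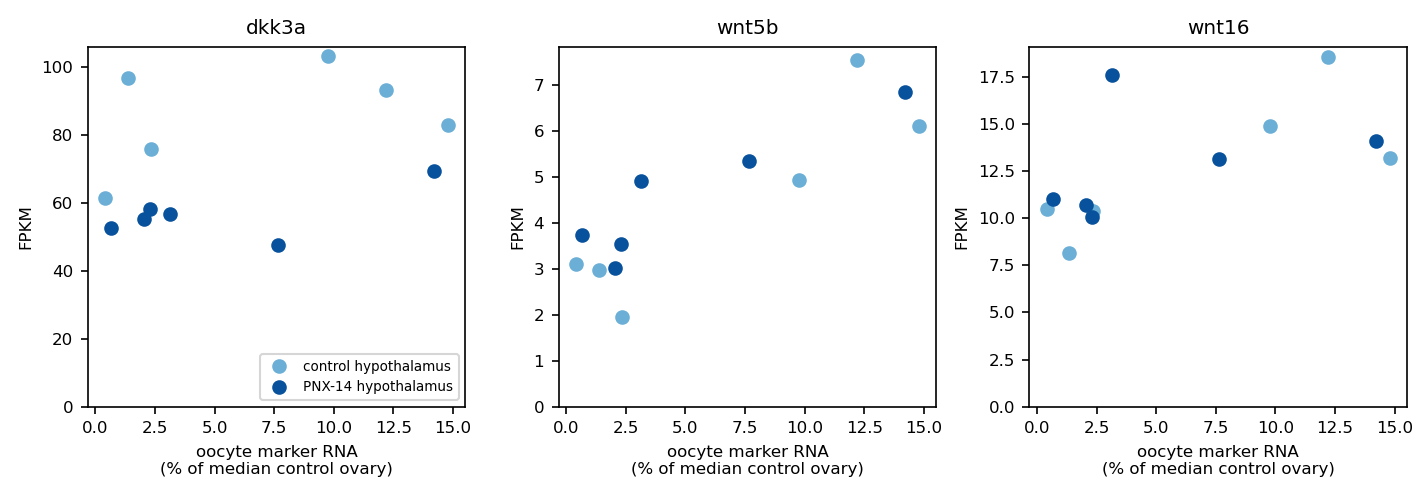
FPKM of dkk3a, wnt5b and wnt16 in each of the 12 hypothalami against the summed oocyte marker RNA of the same library, as percent of the median control ovary. The control libraries above 9% egg RNA hold more wnt5b and wnt16 than the control libraries below 3%. For dkk3a these sets overlap, at 82.9 to 103.2 FPKM above 9% and 61.6 to 96.7 FPKM below 3%.

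Of the genes that lipidate, export and remove ligands, the carrier wls (ENSTNIG00000006971), which brings lipidated ligands to the cell surface, was the highest member of its role in both organs, at 75.9 ± 8.74 FPKM (SD, n = 6) in control hypothalamus and 70.7 ± 9.40 FPKM (SD, n = 5) in control ovary. Its fitted log2 fold was -0.25 (SE 0.13, edgeR adjusted p = 0.083). The acyltransferase porcn (ENSTNIG00000012507), which adds the lipid, was lower in hypothalamus at a log2 fold of -0.81 (SE 0.12, edgeR adjusted p = 1.7e-06). The second row of this symbol, PORCN (ENSTNIG00000004840), had a log2 fold of -0.28, which turned to 0.07 among genes with at least 10 counts in every library. The secreted esterase notum1a, which removes the lipid and so inactivates ligands, stood at 5.09 ± 1.33 FPKM in control hypothalamus and 0.345 ± 0.331 FPKM in control ovary. Its log2 fold was 3.46 (SE 0.53, edgeR adjusted p = 2.5e-06), or 4.09 without OC6.

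In the R-spondin arm, which protects Frizzled receptors from removal, the receptor lgr4 stood at 12.1 ± 1.75 FPKM in hypothalamus and 11.97 ± 4.67 FPKM in ovary (log2 fold -0.34, SE 0.18). The ligand rspo3 was higher in hypothalamus, at 1.51 to 3.57 FPKM against 0 to 0.894 FPKM in control ovary (log2 fold 2.78, SE 0.64, edgeR adjusted p = 0.00037). OC6 held 13 of its 18 counts in control ovary, and without OC6 the log2 fold was 4.05. Control hypothalamus held 8.60 ± 1.11 FPKM of znrf3, the ligase that removes Frizzled receptors, and control ovary 4.82 ± 1.58 FPKM. Its log2 fold of 0.48 (edgeR adjusted p = 0.022) fell to 0.36 without OC2 (adjusted p = 0.091) to 0.39 without OC3 (adjusted p = 0.069) and to 0.45 without the libraries with more egg RNA (adjusted p = 0.11), and was 0.55 with the library number as a block (adjusted p = 0.060).

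On the FPKM scale, Frizzled receptors also summed to similar levels, 100.9 ± 6.61 FPKM (SD, n = 6) in control hypothalamus and 107.8 ± 35.0 FPKM (SD, n = 5) in control ovary. Of 13 receptors tested, 6 were higher and 6 lower in hypothalamus, against 44.3% and 39.2% of all genes. The clearest was fzd10, a Frizzled known in vertebrate embryos from the dorsal neural tube. It ran from 7.80 to 10.8 FPKM in control hypothalamus, median 9.63, and was at 0.639, 0.511, 0.404, 0.728 and 0.617 FPKM in the control ovaries. Every hypothalamus lay above every ovary, with a log2 fold of 3.66 (SE 0.31, edgeR adjusted p = 2.1e-10). The fzd4 and fzd2 genes were higher by log2 folds of 1.34 and 1.05. The kinase-like receptor ryk was the highest receptor of the hypothalamus at 60.7 ± 5.08 FPKM, and stood at 24.7 ± 9.58 FPKM in ovary (log2 fold 0.95, SE 0.16).

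The 6 receptors lower in hypothalamus were FZD8, fzd5, ror1, fzd6, lrp6 and FZD7 (ENSTNIG00000003781), the last at a log2 fold of -0.37 (edgeR adjusted p = 0.047). The highest Frizzled of the ovary, fzd6, reached 30.5 ± 9.02 FPKM there and 21.2 ± 2.71 FPKM in hypothalamus. FZD8 was at 14.9, 10.3, 17.2, 65.8 and 14.6 FPKM in the control ovaries and 5.71 to 10.03 FPKM in control hypothalami. One ovary, OC5, stood well above the rest, and the control organs did not overlap. The log2 fold of FZD8 was -2.15 (SE 0.34, edgeR adjusted p = 3.5e-06), and -1.37 without OC5 (adjusted p = 1.5e-06). The fold of fzd5 was -1.68 (SE 0.18). The co-receptors lrp5 and lrp6 leaned opposite ways, at log2 folds of 0.73 and -0.58, with control groups that overlapped in CPM for both.

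The secreted antagonists held the gene with the largest organ fold after axin1 among members with counts in control ovary. The dkk3a gene, on chromosome 5 at 6168771 to 6170342 on the minus strand, encodes a Dickkopf-family glycoprotein. Unlike DKK1 and DKK2, mammalian DKK3 does not bind LRP co-receptors strongly, and its effect on Wnt signalling depends on the cell. The lowest, median and highest control hypothalami held 61.6, 88.1 and 103.2 FPKM, and the control ovaries 0.684, 0, 0.537, 0.727 and 0.326 FPKM. With 0 to 5 counts per control ovary, the gene was near the floor there, and the log2 fold was 7.17 (SE 0.44, edgeR adjusted p = 9.2e-13).

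The other Dickkopf genes were low. Control hypothalami held dkk1a, an inhibitor that binds LRP5 and LRP6, at 0.998 to 1.68 FPKM, and no control ovary had a count. With counts scaled by library size alone, dkk1a was at least 22.1-fold higher, against a floor of 3 counts over the group. The dkk2 gene ran from 0.545 to 3.88 FPKM in control hypothalami and from 0 to 0.744 FPKM in ovaries, which overlap (log2 fold 3.05, SE 0.76, edgeR adjusted p = 0.00082). Without OC1, which held 7 of the 9 counts in control ovary, the log2 fold was 4.70. Its neighbour on chromosome 18, 43390 bases away, is lef1.

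Among the SFRPs, which bind ligands directly, sfrp5 and sfrp2 were higher in hypothalamus by log2 folds of 5.19 (SE 0.45) and 4.44 (SE 0.55). The ovary was led by frzb (also called SFRP3) and sfrp1a, at 79.9 ± 33.2 and 49.4 ± 18.6 FPKM (SD, n = 5). Both were also well expressed in hypothalamus, at 61.3 ± 17.0 and 25.9 ± 8.43 FPKM (SD, n = 6), and their organ ranges overlapped. The log2 fold of sfrp1a was -1.30 (SE 0.26, edgeR adjusted p = 8.4e-05). That of frzb was -0.73 (SE 0.20, edgeR adjusted p = 0.0019), -0.44 without OC6 (adjusted p = 0.020) and -0.38 among genes with at least 10 counts in every library (adjusted p = 0.080). In control ovary frzb took 61.1% of the summed antagonist FPKM and sfrp1a 38.1%, and in control hypothalamus dkk3a took 45.6%, frzb 32.3% and sfrp1a 13.5%.

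Inside the cell, the leading dishevelled and TCF/LEF genes differed between the organs, whereas AXIN2 (ENSTNIG00000004605) and apc led their families in both. The scaffold axin1, on chromosome 3 at 12440615 to 12446619, had the largest fold of any member with counts in both control organs. Control hypothalami held 20.7 to 36.4 FPKM, median 25.5, and the control ovaries 0.0999, 0.0677, 0, 0.0354 and 0 FPKM, from 0 to 3 counts each. The log2 fold was 8.996 (SE 0.38, edgeR adjusted p = 1.3e-15), or 9.61 without OC1. Both rows named AXIN2 were present in both organs. AXIN2 (ENSTNIG00000004605) stood at 55.8 ± 6.13 FPKM in hypothalamus and 25.3 ± 3.54 FPKM in ovary, and axin2 (ENSTNIG00000017988) at 21.0 ± 2.50 and 18.5 ± 5.89 FPKM. So axin1 made up 26.3% of axin FPKM in control hypothalamus and 0.0975% in control ovary. Axin genes of near sequence may share reads, since the handling of reads that fit several genes is not given in the sources used here.

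The APC genes, whose products hold the destruction complex together, were both higher in hypothalamus. Control levels of apc were 64.1 ± 6.90 FPKM (SD, n = 6) in hypothalamus and 12.8 ± 3.90 FPKM (SD, n = 5) in ovary, a log2 fold of 1.97 (SE 0.18). The apc2 gene, the brain form in mammals, ran from 27.5 to 66.4 FPKM, median 60.4, and was at 0.648, 0.796, 0.424, 1.64 and 0.322 FPKM in the control ovaries. No ranges overlapped, and the log2 fold was 5.84 (SE 0.35, edgeR adjusted p = 5.2e-13). The low hypothalamus was HC5, the library with the most muscle marker RNA, and the log2 fold was 5.95 without it. HT4, the PNX-14 hypothalamus with the most muscle marker RNA, held 54.9 FPKM. The kinase gene gsk3bb, by contrast, stood at 55.0 ± 5.64 FPKM in hypothalamus and 44.5 ± 7.95 FPKM in ovary (fitted log2 fold -0.05, SE 0.13), while gsk3aa was higher in hypothalamus (log2 fold 1.14, SE 0.21). The deposited description of the row gsk3aa is Glycogen synthase kinase-3 beta, as for gsk3bb, so its identity is unsure.

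Dishevelled, the relay below the receptors, summed to 62.7 ± 2.31 FPKM in control hypothalamus and 68.1 ± 9.002 FPKM in control ovary. In the ovary dvl2 took 65.7% ± 4.44 (SD, n = 5) of that sum. It was at 43.7, 42.7, 42.4, 50.8 and 42.7 FPKM in the control ovaries against 9.78 to 14.9 FPKM in control hypothalami, without overlap (log2 fold -2.10, SE 0.13, edgeR adjusted p = 1.3e-12). DVL3 was the reverse, at 8.57 to 12.7 FPKM in control hypothalami and 0.0963 to 0.441 FPKM in control ovaries (log2 fold 4.71, SE 0.34, edgeR adjusted p = 1.5e-11). The dvl3a gene was level (log2 fold -0.05, SE 0.11), and dvl1a was higher in hypothalamus (log2 fold 1.17, SE 0.19).

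Beta-catenin itself, ctnnb1, was the highest of all members in both organs. Its mean was 175.6 ± 5.46 FPKM (SD, n = 6) in control hypothalamus and 147.9 ± 46.5 FPKM (SD, n = 5) in control ovary. The spread was the wider in ovary, from 99.3 to 216.8 FPKM, and the fitted log2 fold was -0.11 (SE 0.15, edgeR adjusted p = 0.50). The rows named ctnnbip1, for a small protein that blocks beta-catenin from TCF, lie 1382 bases apart on chromosome 9. The log2 fold was 2.56 (SE 0.68) for ENSTNIG00000000843 and 0.46 (SE 0.39) for ENSTNIG00000015165.

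The 5 TCF/LEF factors, through which beta-catenin acts on genes, were led by different paralogs in hypothalamus and ovary. TCF7L2, the main family member of the adult mammalian forebrain, has its puffer gene tcf7l2 on chromosome 2_random at 280060 to 294105. Its lowest, median and highest levels were 82.5, 154.3 and 169.6 FPKM in control hypothalamus, and 3.07, 1.12, 1.57, 2.93 and 0.633 FPKM in the control ovaries. No values overlapped, HC5 being the lowest hypothalamus, and the log2 fold was 5.91 (SE 0.31, edgeR adjusted p = 5.8e-14), or 6.01 without HC5. TCF7L1, known mainly as a repressor in embryonic cells, stood on the ovary side at 40.2, 30.5, 38.9, 53.5 and 27.4 FPKM, against 16.1 to 23.0 FPKM in control hypothalamus (log2 fold -1.35, SE 0.16, edgeR adjusted p = 6.9e-08). As a share of the family's FPKM, tcf7l2 took 70.4% ± 5.19 (SD, n = 6) in control hypothalamus and TCF7L1 73.3% ± 4.61 (SD, n = 5) in control ovary. These are shares of unlike totals. The family summed to 199.7 ± 37.05 FPKM (SD, n = 6) in control hypothalamus and 51.5 ± 10.8 FPKM (SD, n = 5) in control ovary. Both lef1 and tcf7l1b were higher in hypothalamus (log2 folds 1.94 and 0.70), and the log2 fold of tcf7 was 0.62 (SE 0.48, edgeR adjusted p = 0.22).

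**Figure D3:**
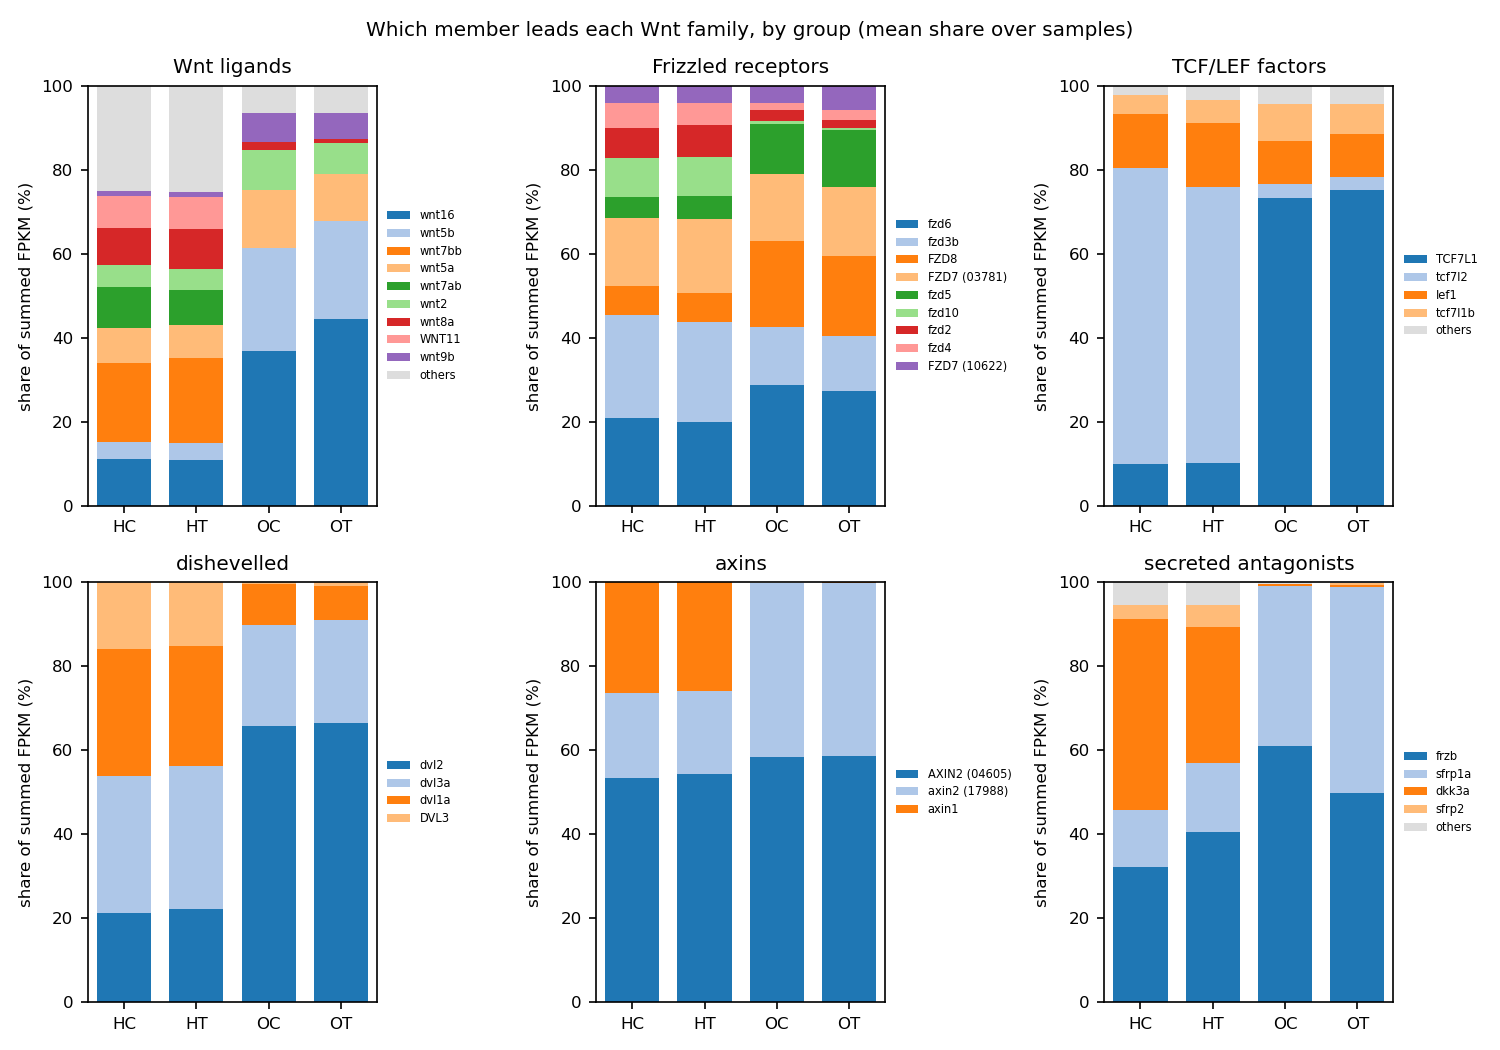
Share of each family's summed FPKM taken by its members, as the mean over the libraries of control hypothalamus (HC), PNX-14 hypothalamus (HT), control ovary (OC) and PNX-14 ovary (OT). Members that reach 5% in any group have their own colour and digits in brackets end the gene ID. The leading TCF/LEF factor is tcf7l2 in hypothalamus and TCF7L1 in ovary, and the dishevelled share of dvl2 is 21.2% in HC and 65.7% in OC.

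Other genes of the pathway were counted from lists by symbol, to be read against the 44.3% of all genes that were higher and the 39.2% that were lower. Among feedback genes and common targets, 11 of 12 rows tested were higher in control hypothalamus and 1 was lower at edgeR's adjusted p of 0.05, with a median log2 fold of 1.93. These included ccnd2a, a cyclin (2.74), and the transcription factor gene sp5l (4.84), and the 1 that was lower was myca (-3.85). Of 23 planar cell polarity rows, which orient cells within a sheet, 10 were higher, led by prickle2a (8.34), and 10 were lower, led by prickle3 (-2.37). Of 17 further destruction complex rows, 6 were higher and 8 lower. Of 20 nuclear partners of beta-catenin, 11 were higher and 5 lower. Of 24 co-receptor, modulator and calcium rows, 14 were higher and 6 lower.

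The second comparison asked whether PNX-14 changed these genes in the hypothalamus. No member passed an adjusted p of 0.05 in edgeR (0 of 70, as for 0% of the 17126 genes tested). At an unadjusted p under 0.05, 1 member was higher (1.43%, against 2.57% of all genes) and 1 was lower (1.43%, against 1.33%). DESeq2 called 5 of 19895 genes given an adjusted p in this organ at 0.05, of which 1 was a member. Its unadjusted p was under 0.05 for 774 genes, of which 2 were members. How many genes and members DESeq2 gave an unadjusted p was not recorded, so no share can be set beside these counts. The median log2 fold was 0.03 over the members and 0.01 over all genes. Here values are CPM on the organ's own TMM scale.

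The lower member, and the 1 that DESeq2 called, was dkk3a. It stood at 36.3, 51.7 and 59.99 CPM (lowest, median, highest) in control and at 28.2, 32.9 and 39.9 CPM in PNX-14 hypothalami. Only HC3 lay below the highest treated library, HT4, and the other 5 controls lay above all 6 treated fish. The means were 50.1 ± 8.68 CPM and 33.2 ± 3.94 CPM (SD, n = 6 each), a log2 fold of -0.60 (SE 0.13). It ranked 4 of 17126 genes by p in edgeR's quasi-likelihood test, with an adjusted p of 0.98. DESeq2 gave a log2 fold of -0.61 and an adjusted p of 0.046. So the call depended on the tool.

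The direction of dkk3a held in every setting tried. Leaving out each library in turn gave log2 folds from -0.67 to -0.54, and leaving out the 5 libraries with more egg RNA gave -0.51. With the oocyte markers as a covariate the value was -0.59. Neuron markers summed to 2860 to 3323 CPM in control and 2192 to 3322 CPM in PNX-14 hypothalami, and glial markers to 3379 to 3978 and 3029 to 3745 CPM. Microglia and macrophage markers summed to 131.2 to 266.4 CPM (median 174.0) in control and 133.3 to 342.5 CPM (median 277.3) in PNX-14 hypothalami, with 2 of 7 genes higher at an unadjusted p under 0.05. Their part in the dkk3a value was not tested. As a share of secreted antagonist FPKM, dkk3a took 45.6% ± 5.43 in control and 32.5% ± 2.75 in PNX-14 hypothalami (SD, n = 6 each).

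The other Dickkopf genes gave no such value. Control and PNX-14 hypothalami held dkk1a at 0.748 to 1.25 and 0.689 to 1.27 CPM, and dkk2 at 0.415 to 2.94 and 1.48 to 2.76 CPM, with overlap in both. The higher member was dvl3a, a dishevelled gene, at 39.2, 41.3 and 44.8 CPM in control and 44.7, 47.3 and 49.3 CPM in PNX-14 hypothalami. Its groups overlapped by 1 library on each side, and the log2 fold was 0.17 (SE 0.08, edgeR adjusted p = 0.98), or 0.09 without the libraries with more egg RNA.

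**Figure D4:**
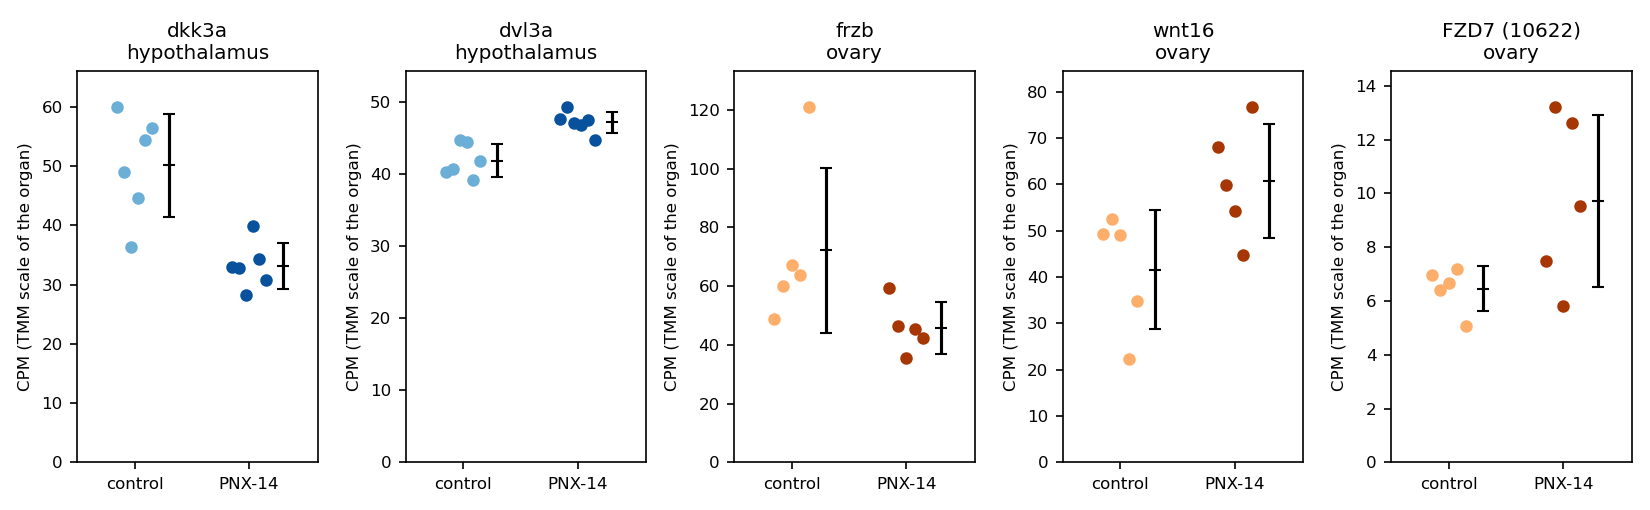
CPM of each library for the 5 members with an unadjusted p under 0.05 for PNX-14, in the organ where that p was found. Points are libraries, and the bar beside them is the mean with its SD. For dkk3a in hypothalamus, 5 of 6 control libraries lie above all 6 PNX-14 libraries, and the groups overlap in every panel.

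In the ovary, no member passed an adjusted p of 0.05 in edgeR (0 of 49, against 0.0135% of the 14777 genes tested). At an unadjusted p under 0.05, 2 members were higher (4.08%, against 4.05% of all genes) and 1 was lower (2.04%, against 3.93%), shares near the background. DESeq2 called 31 of 15104 genes given an adjusted p, and 0 members. Its unadjusted p was under 0.05 for 1487 genes, of which 3 were members. The numbers of genes and members given an unadjusted p by DESeq2 were not recorded, so these counts have no shares. The median log2 fold was -0.01 over the members and -0.02 over all genes. 

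The lower one was the antagonist frzb, on chromosome 2 at 8865630 to 8869829. The control ovaries held 48.9, 60.2, 67.2, 63.7 and 121.0 CPM and the PNX-14 ovaries 59.4, 46.4, 35.4, 45.3 and 42.2 CPM. The groups overlapped, and OC6 was far above the other controls. The log2 fold was -0.66 (SE 0.22, edgeR adjusted p = 0.56), and -0.39 without OC6. Of fibroblast markers, 10 of 10 listed genes matched. Their sum ranged from 595.1 to 1454 CPM (median 1113) in control and from 619.8 to 975.1 CPM (median 750.8) in PNX-14 ovaries. By library the sums did not follow frzb closely. OC6 held the highest sum, but OC3 held 1443 CPM with frzb at 67.2 CPM. OC5 held the lowest control sum with frzb at 63.7 CPM. Of 9 fibroblast markers tested, 5 were lower at an unadjusted p under 0.05 and 0 passed adjustment. Of muscle markers 5 of 11, and of microglia and macrophage markers 2 of 6, were lower at that level, with sums of 4792 to 8061 and 57.7 to 122.6 CPM in control and 3664 to 5318 and 59.0 to 100.1 CPM in PNX-14 ovaries. The part of these cells in the frzb value was not tested.

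The ligand wnt16, which leads the ovary, was at 49.3, 52.6, 49.1, 22.3 and 34.7 CPM in control and 68.0, 59.8, 54.2, 44.7 and 76.7 CPM in PNX-14 ovaries. Of the 5 treated ovaries, 4 lay above every control. The log2 fold was 0.54 (SE 0.22, edgeR adjusted p = 0.59), and 0.39 without OC5, the lowest control. The other was the receptor FZD7 (ENSTNIG00000010622), with control values of 6.98, 6.43, 6.68, 7.18 and 5.07 CPM and PNX-14 values of 7.48, 13.2, 5.82, 12.6 and 9.52 CPM. Its treated values spread widely and overlapped the controls, with a log2 fold of 0.59 (SE 0.25, edgeR adjusted p = 0.61). The second row of this symbol, FZD7 (ENSTNIG00000003781), ranged from 23.7 to 33.3 CPM in control and from 19.1 to 40.6 CPM in PNX-14 ovaries.

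All 5 TCF/LEF factors had negative log2 folds in the ovary, as did 53.4% of all genes tested there. They ran from -0.53 for tcf7l1b to -0.28 for TCF7L1, and none had an unadjusted p under 0.05. For tcf7l1b, OC6 held 11.99 CPM and the other controls 5.52 to 7.25 CPM. In the hypothalamus 3 of the 5 factors were positive. The 9 ligands tested in ovary ranged from -0.42 to 0.59, with 7 positive. The kremen1 gene, for a DKK co-receptor, had the most negative value of any member at -1.05 (SE 0.59, edgeR adjusted p = 0.68), but 1 control ovary, OC2, held 8.60 CPM and the other 4 held 0.570 to 2.22 CPM.

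**Figure D5:**
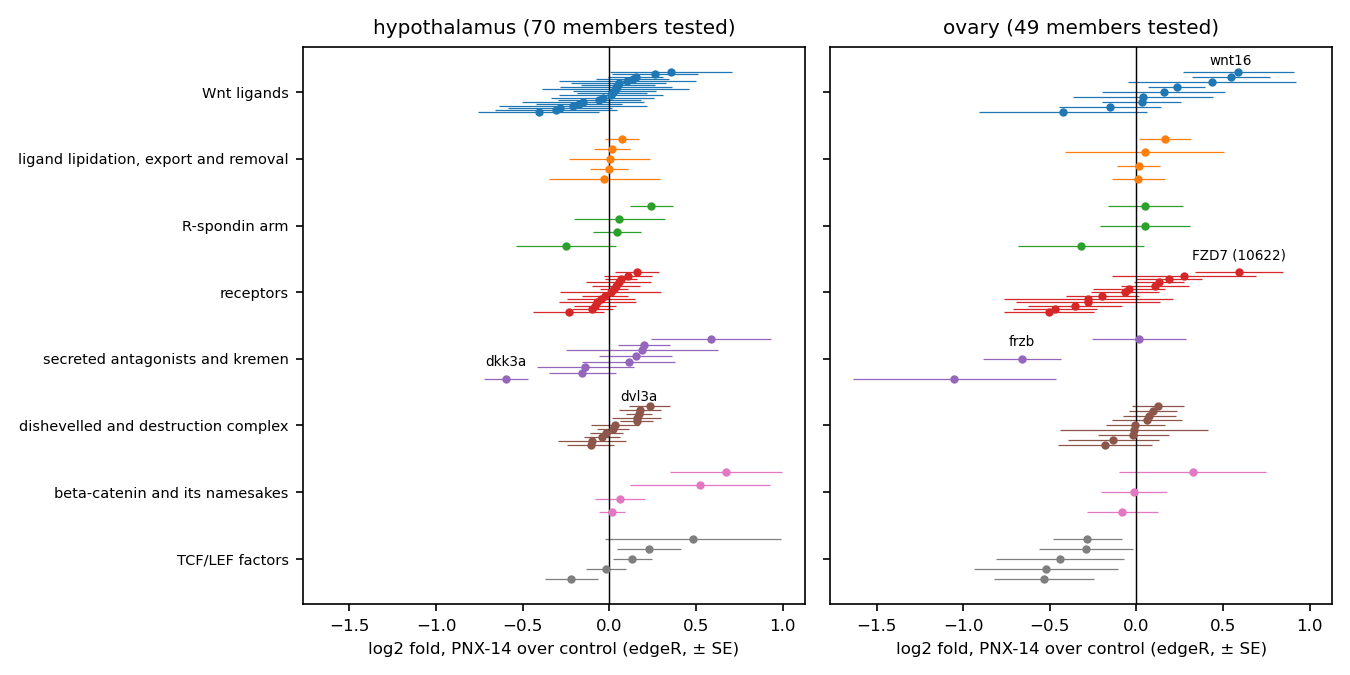
Log2 fold of PNX-14 over control for every member tested in hypothalamus (70) and ovary (49), in 8 roles, with SE as bars. Members with an unadjusted p under 0.05 are named (digits in brackets end the gene ID), and no point passed an adjusted p of 0.05 in edgeR.

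Among the other pathway lists, no gene passed an adjusted p of 0.05 for PNX-14 in either organ by edgeR. The beta-catenin partner pygo2 had an unadjusted p under 0.05 in both organs, with log2 folds of 0.38 (SE 0.13) in hypothalamus and 0.45 (SE 0.19) in ovary. The destruction kinase gene csnk1a1 had -0.23 in hypothalamus, and ankrd6b, of planar cell polarity, 0.28. In ovary, tnfrsf19 had -0.92, csnk1g1 0.41, siah1 -0.64, prickle3 0.36 and rhoab -0.37, which completes the genes at an unadjusted p under 0.05. Feedback genes and common targets had medians of 0.01 in hypothalamus and -0.21 in ovary, with 0 of 11 and 1 of 8 rows at an unadjusted p under 0.05. Over all genes, that level was reached by 2.57% higher and 1.33% lower in hypothalamus, and by 4.05% and 3.93% in ovary.

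A joint fit tested whether the PNX-14 effect differed between the organs. No member passed an adjusted p of 0.05 in edgeR (0 of 70, against 0.00561% of 17840 genes), and 6 had an unadjusted p under 0.05 (8.57%, against 6.19% of all genes). The difference, ovary minus hypothalamus on the log2 scale, was -0.79 (SE 0.28) for frzb, and -0.95 to -0.53 leaving out 1 library. It was -0.71 (SE 0.33) for tcf7l1b (-0.47 without OC6) and 0.72 (SE 0.34) for FZD7 (ENSTNIG00000010622). DVL3 had a difference of 1.09 (SE 0.44), from 2 to 9 counts per control ovary and 3 to 17 per PNX-14 ovary. For dkk3a it was 1.06 (SE 0.65, edgeR adjusted p = 0.88), with 0 to 10 counts per ovary library. The ligands wnt4b and wnt9a also had an unadjusted p under 0.05, but their ovary counts came mainly from 1 library, OT3, with 30 counts of wnt4b and 4 of wnt9a. Without OT3 their differences were 1.35 and 0.34, against 5.53 and 3.27 with it.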

How the data were processed

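Poly(A) RNA of 22 libraries was sequenced. Per the methods and labels, the authors trimmed reads with fastp, aligned them with HISAT2 to TETRAODON 8.0 and counted them per gene with featureCounts, with versions, strand setting and treatment of reads fitting several genes not given in the sources used here. The deposited counts are whole read counts per gene without normalization. FPKM was also deposited and corrects each count for gene length and library size. Another 22 per-sample columns of counts scaled by size factors, and the authors' own fold changes and p-values, were not used.

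In R 4.3.3, genes were kept by filterByExpr and libraries scaled by TMM. The robust quasi-likelihood test of edgeR 4.0.16 was applied, with Benjamini-Hochberg adjustment over all genes tested. Each SE given for a log2 fold is approximate. It was computed as the absolute log2 fold divided by the square root of that test's F statistic. Organs were fitted apart for PNX-14, and jointly for the organ and interaction tests, a gene absent from 1 table being set to 0 there. DESeq2 1.42.0 and limma-voom (limma 3.58.1) were alternatives. The fits were tested on simulated data with the same spread for every gene. The changes put in were larger than the PNX-14 values of dkk3a, frzb and wnt16, so power at those sizes was not measured. The members, the marker and pathway lists and the libraries with more egg RNA were chosen with earlier results of these data known. Named members were the dkk genes, those with an unadjusted p under 0.05 for PNX-14, the 3 largest called organ folds of each role in either direction, the highest FPKM of each role, and the 5 smallest interaction p. Other members were named after their values were seen. Equal library numbers were used only as an alternative block. Within an organ, p-values measure the spread between fish. The organ and interaction fits treated libraries of both organs as independent, although the methods take both organs from the same set of fish. Figures were drawn with matplotlib. No sequence is shown.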

Additional observations from a re-analysis of the deposited data

Results flagged for a closer look

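In 9 of 77 groups of 5 or 6 libraries examined, 1 library of a named member stood apart from the rest by Dixon's test at 95%, which chance alone gives in about 1 in 20 groups. Values are CPM on the organ's TMM scale. In control ovary, FZD8 was at 110.2 in OC5 (others up to 31.0), frzb at 121.0 in OC6 (others 48.9 to 67.2), tcf7l1b at 11.99 in OC6 (others 5.52 to 7.25) and fzd2 at 6.52 in OC3 (others 3.44 to 4.33). In control hypothalamus, HC5 was low for apc2 at 81.1 (others 160.8 to 199.0) and for lgr4 at 24.7 (others 35.7 to 39.0), HC1 was low for fzd2 at 8.75 (others 11.8 to 12.7) and HC4 was high for wnt9b at 3.27 (others 0.726 to 1.64). In PNX-14 hypothalamus, dkk2 was at 2.76 in HT2 (others 1.48 to 1.78). Muscle marker RNA was 8318 CPM in HC5. HT4, with 3575 CPM of it, held apc2 at 159.6 and lgr4 at 39.0. HT1, with 381.4 CPM of it, held apc2 at 105.3 and lgr4 at 31.2. The part of muscle RNA in the apc2 and lgr4 values was not tested.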

How the results depend on the processing

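Counts and directions were recomputed under other tools, scalings, filters, samples and covariates. No member passed an adjusted p of 0.05 for PNX-14 in ovary or for the difference between organs in any of them. For PNX-14 in hypothalamus, DESeq2 called 1, dkk3a at -0.61. At an unadjusted p under 0.05 the hypothalamus count of 2 became 1 with DESeq2 size factors, 1 with at least 10 counts in every library and 1 with the replicate block, and 1 to 4 leaving out 1 library. The ovary count of 3 became 1 with the oocyte markers as a covariate, and 1 (without OC6) to 5 (without OC1 or OC5) leaving out 1 library. Requiring 10 counts in every library, which drops members low in 1 organ, left 16 higher in hypothalamus, 4 at least 4-fold higher and 1 at least 4-fold lower. The count at least 4-fold lower was otherwise 3 with DESeq2, 2 with its size factors, 3 with limma-voom and 3 with the replicate block. Apart from DESeq2 for PNX-14, counts over all genes were not taken in these settings, so these member counts cannot be set against them. The number of members still tested with 10 counts in every library was not recorded. Values that changed sign were dkk1a for PNX-14 in hypothalamus (0.0296 without the libraries with more egg RNA), dkk2 there (-0.006 to 0.4542 leaving out 1 library) and PORCN between organs (0.0725 with 10 counts in every library), none of which then passed. Between organs, PORCN also lost its call with DESeq2, its size factors, controls fitted alone or the replicate block, and without HC4, OC3 or OC6. The znrf3 gene lost its call with the replicate block, without OC2, without OC3 and without the libraries with more egg RNA. The call of frzb was lost with 10 counts in every library. The methods take both organs from one set of fish, but no source says that a number marks a fish, and the deviations did not settle it. Same-numbered HC and OC libraries correlated at -0.13 to 0.24 (other pairs -0.26 to 0.18), where 3 of 5 matched best with their own number. Same-numbered HT and OT libraries correlated at 0.08 to 0.15 (other pairs -0.09 to 0.07), where 5 of 5 did. Control and treated libraries come from different fish. Yet same-numbered OC and OT libraries correlated at 0.02 to 0.25 (other pairs -0.22 to 0.16), where 2 of 4 matched best. For HC and HT the values were -0.27 to 0.30 (other pairs -0.58 to 0.47), where 0 of 6 did. Depth limits genes such as dkk1a and wnt9a, with few or no counts per ovary.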

Other observations

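TCF7 is known in mammals from T cells. The deposited description of the row tcf7 is Transcription factor 7-like 2, so its identity is unsure. This row varied most between control hypothalami of the 48 members with a mean of at least 5 CPM. The SD of its log2 CPM was 1.11, against a median of 0.27 over 14631 genes and 0.22 over those members. Control libraries held 8.54, 1.35, 1.99, 6.92, 2.03 and 10.2 CPM, with no intermediate values between 2.03 and 6.92. PNX-14 hypothalami ranged from 2.66 to 12.3 CPM, and HT3 (2.66), HT4 (5.64) and HT5 (5.38) lay within that gap. Microglia and macrophage markers summed to 193.8, 266.4 and 247.3 CPM in HC1, HC4 and HC6, where tcf7 was high, and to 131.2 to 154.2 CPM in HC2, HC3 and HC5, where it was low. Their part in the tcf7 values was not tested.

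Some members were neighbours in the genome. The wnt6b gene had a log2 fold of 1.63 between control hypothalamus and ovary (SE 0.45), while wnt10a, 10029 bases away, had at most 4 counts in any control library. The kremen1 and znrf3 genes lie 9135 bases apart on chromosome 12, with organ log2 folds of 0.77 (SE 0.45) and 0.48 (SE 0.19).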
